A study of Mus musculus with 7 samples.

Results

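Macrophages are phagocytes that are seeded in the pancreas before birth or arise from blood monocytes, and they clear dead acinar cells and debris after injury. They are recognised by complement C1q (C1qa, C1qb, C1qc) and by Csf1r, the receptor for the growth factor on which they depend. The cells described here were all cells that the authors' annotation placed in a cluster named Macrophages in caerulein-treated pancreata, 10455 of the 22177 cells of those pancreata and of the 58473 cells of the whole series. They fell into 3 clusters, of 5966, 3775 and 714 cells, called clusters 1, 2 and 3 here. Repeated doses of caerulein, an analogue of the hormone cholecystokinin, make acinar cells release and activate their enzymes and so cause acute pancreatitis.

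Pancreata were dissociated and profiled by droplet single-cell RNA sequencing, with 1 library per mouse, in C57BL/6 mice of 2 months. The 2 caerulein mice (CER 1 and CER 2) were wild type and received 7 hourly intraperitoneal injections of 100 µg/kg on each of 2 days. The 2 control mice (WT 1 and WT 2) were wild type and drank doxycycline at 1 mg/ml for 7 days. The 3 i4F mice (genotype i4F-B) carry a transgene from which doxycycline induces the reprogramming factors Oct4, Sox2, Klf4 and c-Myc, and drank the same doxycycline. The labels of the caerulein mice give no doxycycline, and no vehicle-injected control is among the samples. Caerulein and the absence of doxycycline therefore cannot be told apart in any comparison with WT or i4F. The library names fall into 2 series, AL (WT 1 and all i4F mice) and AM (WT 2 and both CER mice), and caerulein and i4F mice never shared a series.

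Libraries held between 15469018 and 64784216 unique molecular identifiers (UMIs, each 1 captured RNA molecule), and CER 1 was the deepest with 64784216 against 17099070 in CER 2. The doxycycline-dependent transactivator of the i4F transgene (rtTA) was at 37.5, 43.6 and 49.4 CPM (UMIs of a gene in each 1000000 UMIs of the cells named) in the macrophages of the i4F mice, at 3.56 and 0 in WT and at 0.09 and 0 in CER. CER 1 and CER 2 shared 25 cell barcodes, 3 of them between cells named macrophages. Predicted doublets, 782 cells of CER 1 and 270 of CER 2, were kept. Intervals on shares of cells are exact binomial 95% intervals that cover counting error only, and the mouse was the replicate in every test.

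The cells kept after dissociation and filtering need not mirror the composition of the tissue. Among them, macrophage-named cells were about as many as all other cells together in CER 1, and somewhat fewer in CER 2. Their share of all cells was 50.3% in CER 1 (interval 49.5 to 51.1) and 40.3% in CER 2 (39.1 to 41.4). It was 2.40% in WT 1 and 8.13% in WT 2, and 35.6%, 39.6% and 6.30% in i4F 1, 2 and 3. Both caerulein mice lay above every other mouse, but CER 2 exceeded i4F 2 by less than the gap between the caerulein mice. The caerulein mean was 45.3% ± 7.10 (SD, n = 2) against 5.26% ± 4.05 (SD, n = 2) in WT, an exact two-sided permutation test giving p = 0.333, the smallest that 2 against 2 mice allow. Against i4F, at 27.2% ± 18.2 (SD, n = 3), the difference of 18.1 percentage points had an exact two-sided permutation p of 0.2, again the smallest the design allows, and it was 7.68 points without i4F 3. The mix of clusters also differed between the caerulein mice, with cluster 1 taking 51.1% of the macrophage-named cells in CER 1 and 73.2% in CER 2, cluster 2 taking 40.7% and 23.8%, and cluster 3 taking 8.27% and 2.96%.

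**Figure D1:**
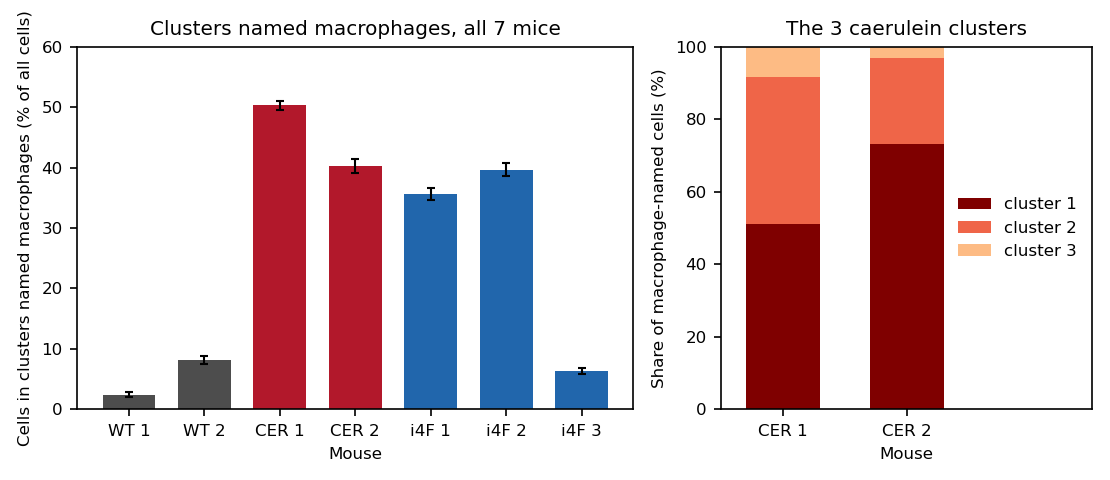
Left, macrophage-named cells as a percentage of all cells in each of the 7 mice, with exact 95% binomial intervals. Right, the percentage of macrophage-named cells in each of the 3 clusters of the caerulein mice: cluster 1 was the largest in both, and cluster 2 held 40.7% in CER 1 and 23.8% in CER 2.

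The label was checked against marker genes fixed for each cell type. The 5 marker genes named for these cells did not run together across the clusters. C1qa stood at 5639 and 4222 CPM in cluster 1 of CER 1 and CER 2, at 3229.7 and 2736 in cluster 2 and at 137 and 346 in cluster 3. Csf1r was at 251 and 314 CPM in cluster 1, 325 and 381 in cluster 2 and 124 and 86.4 in cluster 3. Both were lowest in cluster 3, while cluster 1 had the most C1qa and cluster 2 the most Csf1r. S100a9, a subunit of the neutrophil protein calprotectin, was the reverse, at 43.5 and 25.6 CPM in cluster 1, 17 and 4.18 in cluster 2 and 30533 and 34608 in cluster 3.

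The secreted phosphoprotein gene Spp1 (osteopontin) was at 8251 and 9058 CPM in cluster 1 of the 2 mice, 3307 and 3438 in cluster 2 and 536 and 1439.6 in cluster 3. Chil3, a chitinase-like protein of monocytes and alternatively activated macrophages, was at 391 and 668 CPM in cluster 1, 783 and 732 in cluster 2 and 75.4 and 432 in cluster 3. Among the 10 leading genes of each cluster, cluster 1 had Apoe, Gpnmb, Trem2, C1qa and Ms4a7 from the macrophage list and Lyz2 from the monocyte list, and cluster 2 had the macrophage marker Mrc1 and the monocyte marker F13a1. Neither had a marker of another cell type among them. Only 4 of the 16 acinar and 4 of the 7 endocrine markers are in the deposited counts, so the check covers these types less. Cluster 3 had 6 neutrophil markers and no macrophage marker, and its cells were shallow, with a median of 328 UMIs in CER 1 and 286 in CER 2 against 3312.5 and 1876 in cluster 1. The data therefore went against the name of cluster 3, which is led by S100a9, S100a8 and G0s2 and is given by its number alone. Clusters 1 and 2 without it held 46.2% of all cells in CER 1 and 39.1% in CER 2.

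Against the other clusters named macrophages, cluster 1 was led by lysosomal and lipid-handling genes. These rankings describe cells that were clustered on the same genes and carry no test, and folds are ratios of CPM after adding 20 CPM. Syngr1, a vesicle membrane protein, was 6.58-fold higher in CER 1 and 3.62-fold in CER 2. Gpnmb, a lysosomal membrane glycoprotein of phagocytes loaded with debris, was 5.51- and 4.27-fold higher. The lipoprotein gene Apoe was 3.58- and 2.43-fold higher. Fabp5, a fatty acid carrier, was 2.77- and 2.43-fold higher, the lysosomal protease gene Ctsd 2.79- and 2.18-fold, and Spp1 2.54- and 2.68-fold. Other leading genes were Olfml3, Gatm, Rgs1, Tmem119 and Hebp1.

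The levels of these genes were far apart between the clusters. Gpnmb was at 387 and 479 CPM in cluster 1 and 55.2 and 96.2 CPM in cluster 2. Apoe was among the most abundant transcripts of the clusters, at 25750.4 and 26456 CPM in cluster 1 and 7367 and 11175 CPM in cluster 2. Trem2, the lipid-sensing receptor of phagocytes, was at 1402 and 1331 CPM in cluster 1 and 669 and 748 CPM in cluster 2. For each of these genes the lower value of cluster 1 exceeded the higher value of cluster 2.

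The leading genes of cluster 2 included some receptors of tissue-resident macrophages, chemokines and an interferon-induced gene. Lyve1, a hyaluronan receptor of perivascular macrophages and lymphatic vessels, was 6.34-fold higher than in the other macrophage-named cells in CER 1 and 3.75-fold in CER 2. Ednrb, an endothelin receptor, was 5.72- and 7.89-fold higher, and the mannose receptor gene Mrc1 4.35- and 3.56-fold. The chemokine gene Ccl4 was 5.42- and 9.21-fold higher, Ccl24 5.62- and 3.87-fold and Ccl2 3.86- and 3.44-fold. Rsad2, an interferon-induced antiviral enzyme, was 3.56- and 7.28-fold higher, and Ccl8, Ltc4s, Ccl6, Fcgrt and Egr1 made up the rest of the 12.

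The haemoglobin scavenger receptor gene Cd163 was at 21.3 and 24.9 CPM in cluster 1 and 117 and 134 CPM in cluster 2, without overlap of the mice. The resident receptor genes Timd4 and Vsig4 were scarce in cluster 2, at 1.13 and 1.05 CPM and at 7.8 and 7.32 CPM. Folr2, a receptor gene of the same list, was not scarce over the clusters together. It was at 402 and 365 CPM in macrophage-named cells with at least 3 C1q UMIs. The interferon-induced chemokine gene Cxcl10 was at 103 and 116 CPM in cluster 1 and 335 and 789.8 CPM in cluster 2. Isg15, a ubiquitin-like protein made in response to interferon, was at 70 and 94.1 CPM in cluster 1 and 249 and 513 CPM in cluster 2. Both of these were higher in cluster 2, and further apart in CER 2 than in CER 1. The inflammatory cytokine gene Tnf was at 141 and 141 CPM in cluster 1 and 364 and 648 in cluster 2. The anti-inflammatory Il10 was also higher in cluster 2, at 273 and 171 CPM in cluster 1 and 562 and 512 in cluster 2.

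Ifnb1, the gene of interferon beta, was singled out after its values were seen. It was at 7.11 and 4.07 CPM in cluster 1 and 63.8 and 145 CPM in cluster 2. With every cell thinned to 500 UMIs, 2.79% of cluster 2 cells of CER 1 and 6.74% of those of CER 2 held an Ifnb1 UMI, against 0.208% and 0.243% in cluster 1. Without thinning the shares were 11% and 13.5% in cluster 2, 1.72% and 0.578% in cluster 1 and 0.713% and 0.0914% in acinar cells, which are not known to make it. A minority of cluster 2 cells carried this transcript in both mice, at a share above the acinar background. Macrophages of the other mice carried it too, at 320.1 and 189 CPM in WT and 36.7, 24 and 86.4 CPM in i4F against 27.7 and 30.4 CPM in clusters 1 and 2 of CER together, so that both WT mice were above the caerulein mice.

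The clusters were less far apart, or apart in 1 mouse only, for some other genes. The proliferation gene Mki67 was at 45 and 62.3 CPM in cluster 1 and 72.1 and 79.5 CPM in cluster 2. The MHC class II gene H2-Aa, which presents antigen to helper T cells, was low in both, at 39.2 and 41.7 CPM in cluster 1 and 72.2 and 60.7 in cluster 2 against 499 and 349.8 CPM in all other caerulein cells. Haem oxygenase Hmox1 was at 533 and 545 CPM in cluster 1 and 516 and 1277 CPM in cluster 2, so that the clusters were apart in CER 2 and level in CER 1.

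**Figure D2:**
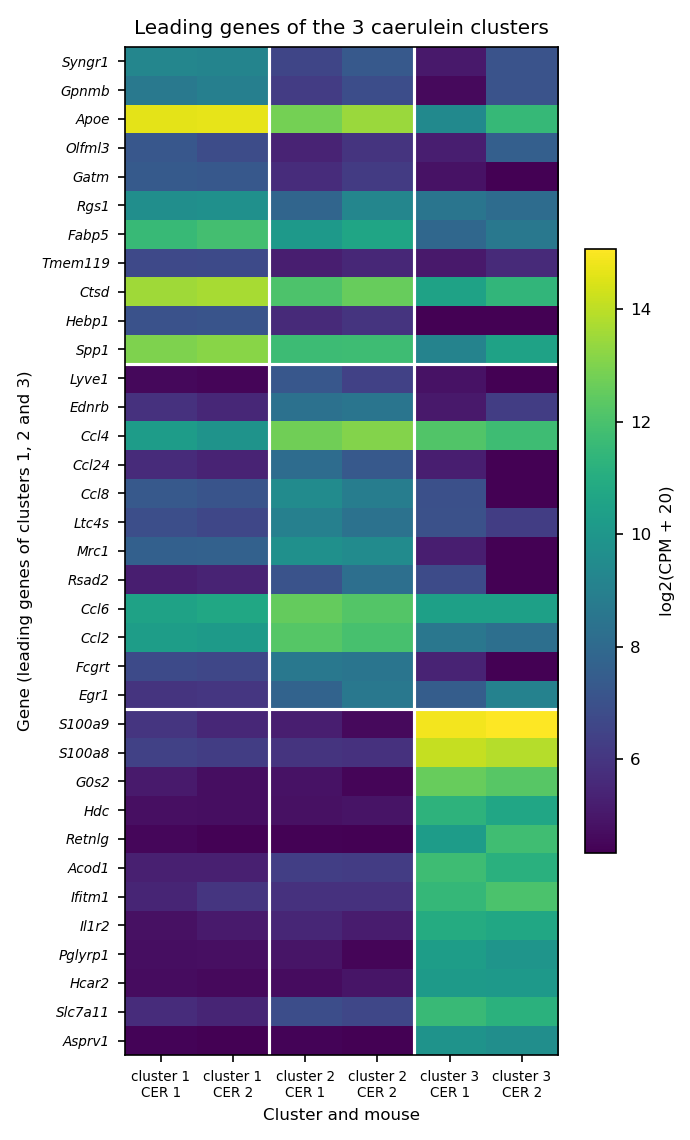
Heat map of leading genes of each cluster (rows) in clusters 1, 2 and 3 of CER 1 and CER 2 (columns), with colour giving log2(CPM + 20). The S100a9 and S100a8 rows are brightest in cluster 3 of both mice, while Ccl4 is bright in clusters 2 and 3, so that it does not separate these 2 clusters.

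Cluster 3 stood apart from the others by neutrophil transcripts. S100a9 was 567-fold higher in CER 1 and 832-fold in CER 2 than in the other macrophage-named cells, and S100a8, its partner in calprotectin, 239- and 206-fold. The 14 neutrophil markers summed to 63105 and 63716 CPM in cluster 3 against 186 and 169.6 CPM in cluster 1 and 189.7 and 182 CPM in cluster 2. Its other leading genes were G0s2, Hdc (which makes histamine), Retnlg, Acod1 (which makes itaconate), Ifitm1, Il1r2 (a decoy receptor for interleukin 1), Pglyrp1, Hcar2, Slc7a11 and Asprv1. In CER 1, 99.0% of its cells held fewer than 500 genes, and in CER 2 94.0%.

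A share of cells with a UMI depends on depth and on free RNA, so shares were set beside those of acinar cells, which do not make C1q. C1qa was found in 82.6% and 72.8% of cluster 1 cells in CER 1 and CER 2, 70.1% and 60.9% of cluster 2 cells, and 15.3% and 6.4% of acinar cells, whose median depth was 2213.5 and 1322.5 UMIs. It was found in 4.76% and 3.57% of cluster 3 cells, which were shallower, and of the few of them with 500 UMIs (49 and 9 cells) in 6.12% and 11.1% after thinning, too few cells to tell from the acinar share. Thinned to 500 UMIs per cell, the C1qa shares were 70.9% and 61.5% in cluster 1, 56.5% and 53.2% in cluster 2 and 7.56% and 4.32% in acinar cells. Thinning left out 44 and 21 cells of cluster 1, 230 and 97 of cluster 2 and 167 and 191 acinar cells, and the order of the clusters was kept. Spp1 was found in 45.9% and 39.4% of acinar cells, so its share in cluster 1, 90.3% and 88.4%, is less particular to macrophages than that of C1qa.

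To ask how caerulein macrophages differed from those of other mice, UMIs were summed per mouse over the clusters that passed the marker check. These were clusters 1 and 2 in CER (6989 and 2752 cells) and the first macrophage cluster of WT (45 and 418 cells) and of i4F (2921, 2735 and 183 cells). The clusters left out had leading neutrophil markers (cluster 3 of CER, cluster 2 of i4F) or dendritic markers (cluster 2 of WT, cluster 3 of i4F). WT 1 thus rested on 45 cells and 281197 UMIs. Of 12272 genes tested, 1159 differed (9.44%), 509 higher (4.15%) and 650 lower (5.3%) in CER than in WT, at an adjusted p under 0.05 (edgeR quasi-likelihood test, Benjamini-Hochberg). Changes are log2 fold changes, and the median change of all tested genes was 0.04, which moved by 0.11 without TMM scaling. Leaving out 1 mouse moved the number of calls from 1159 to between 16 and 1476, with 21 calls without CER 1, 16 without CER 2, 62 without WT 2 and 607 without i4F 1. Without a CER or WT mouse, that group is 1 library, which the fit assumes to vary like the other groups. Here and for the gene lists, a call lost in this way does not by itself show a weaker change. How many were lost also differed with the mouse left out, with fewer lost without WT 1 than without WT 2.

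Transcripts of other cells and of stress also differed between the classes. Of 13 heat shock and dissociation genes, 6 were lower in CER (5.3% over all genes, median change −2.01), their sum being 5336 and 6454 CPM in CER and 16042 and 24157 CPM in WT. Dnajb1, a heat shock chaperone, was at 52.4 and 78.7 CPM in CER and 594 and 591 CPM in WT (log2 change −3.09 ± 0.30 (SE), edgeR adjusted p = 0.00201). Of these 6 calls, Dnajb1 alone was left without CER 1, without CER 2 and without WT 2. Stellate and fibroblast markers summed to 39.1 and 2362 CPM in WT and 177 and 123 CPM in CER, and endocrine markers to 64 and 800.3 and 8.05 and 12.7 CPM. WT 2 was the high library in both. Markers called lower in CER were 5 of 8 dendritic, 4 of 10 stellate, 3 of 8 endothelial, 4 of 4 endocrine and 1 of 3 mesothelial genes tested, against the same 5.3%, and none of these lists' genes was called higher. Lyve1 among the endothelial calls and Mgl2 among the dendritic ones are also made by macrophages, and both are counted again below. The part of transcripts of other cells and of stress in the gene changes that follow was not tested.

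The genes by which macrophages are recognised, which also bore on the choice of clusters, were not called as a group. None of the 14 complement C1q and identity genes passed the test (median change −0.10). C1qa was at 4764 and 3945 CPM in CER and 6284 and 6146 CPM in WT (log2 change −0.40 ± 0.31 (SE), edgeR adjusted p = 0.444). Csf1r was at 277 and 326 CPM in CER and 605 and 565 CPM in WT (log2 change −0.85 ± 0.29 (SE), edgeR adjusted p = 0.0978). Both genes were lower in each caerulein mouse than in each WT mouse, and neither passed the test. With all named clusters taken, C1qa turned to a log2 change of 0.37.

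Spp1 was at 6455 and 8011 CPM in CER and 1728 and 144 CPM in WT, higher in both caerulein mice but short of the threshold (log2 change 3.07 ± 1.04 (SE), edgeR adjusted p = 0.0917). Chil3 was at 534 and 680.1 CPM in CER and 338 and 0 CPM in WT (log2 change 2.06 ± 1.65 (SE), edgeR adjusted p = 0.467), and i4F macrophages held 1703, 10725 and 471 CPM. S100a9 had 852 UMIs in the caerulein class and 0 in the WT class, at least 13.5-fold higher against a floor of 3 UMIs over the WT mice. It too did not pass the test, with an edgeR adjusted p of 0.232. In cells thinned as for C1qa, S100a9 was found in 1.07% and 0.68% of cluster 1 cells of CER 1 and CER 2. The shares were 0.73% and 0.17% in cluster 2 and 2.91% and 1.11% in acinar cells. Neither cluster thus lay above the acinar share of its mouse. The part of free RNA in the S100a9 difference was not tested.

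Genes of lipid-associated macrophages, the state found where phagocytes take up dying cells and lipid, were the programme with the most genes higher in caerulein macrophages. Of 18 genes, 9 were higher (4.15% over all genes tested), none lower, with a median change of 1.32. Gpnmb and Trem2, both among the 9, also bore on the choice of clusters. This list, like the others, was chosen with earlier results of these data known, so its count is a description. Syngr1 was at 399.8 and 482 CPM in CER and 14.2 and 6.96 CPM in WT (log2 change 5.71 ± 0.77 (SE), edgeR adjusted p = 0.00712). Gpnmb was at 266 and 407 CPM in CER and 42.7 and 9.94 CPM in WT (log2 change 4.11 ± 0.68 (SE), edgeR adjusted p = 0.0104). Fabp5 was at 2351 and 3348 CPM in CER and 437 and 325 CPM in WT (log2 change 3.00 ± 0.40 (SE), edgeR adjusted p = 0.00712). The mice of the groups did not overlap for Syngr1, Gpnmb or Fabp5. Lpl, Cd9 and Cd36 of the same list ran the other way without a call. In macrophage-named cells with at least 3 C1q UMIs, Lpl was at 105 and 112 CPM in CER and 424 and 221 CPM in WT. Cd9 was at 79.2 and 73.2 against 280 and 132 CPM there, and Cd36 at 125 and 111 against 280 and 257 CPM.

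The lysosomal protease genes Ctsd, Ctsl and Ctsb were among the 9 higher genes, while Ctss, which is on the class II list, was not called. Ctsd was at 9115 and 11696 CPM in CER and 1749.7 and 1344 CPM in WT (log2 change 2.85 ± 0.38 (SE), edgeR adjusted p = 0.00712). Ctsl and Ctsb rose by 2.30 and 1.65 on the log2 scale (edgeR adjusted p = 0.0300 and 0.0156). Trem2 was at 1136 and 1223 CPM in CER and 455 and 278 CPM in WT (log2 change 1.80 ± 0.36 (SE), edgeR adjusted p = 0.0167), and its signalling adaptor Tyrobp and the lipid droplet coat gene Plin2 made up the 9. Apoe, abundant in both groups at 19071 and 23609 CPM in CER and 8268 and 18508 CPM in WT, did not pass (edgeR adjusted p = 0.349) and its change turned to −0.67 in cluster 2 alone. Of the 9 calls, 3 were left without CER 1, 1 (Syngr1) without CER 2, 0 without WT 2 and 1 (Ctsd) in cluster 2 alone, where Cd9 and Cd36 were called lower.

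**Figure D3:**
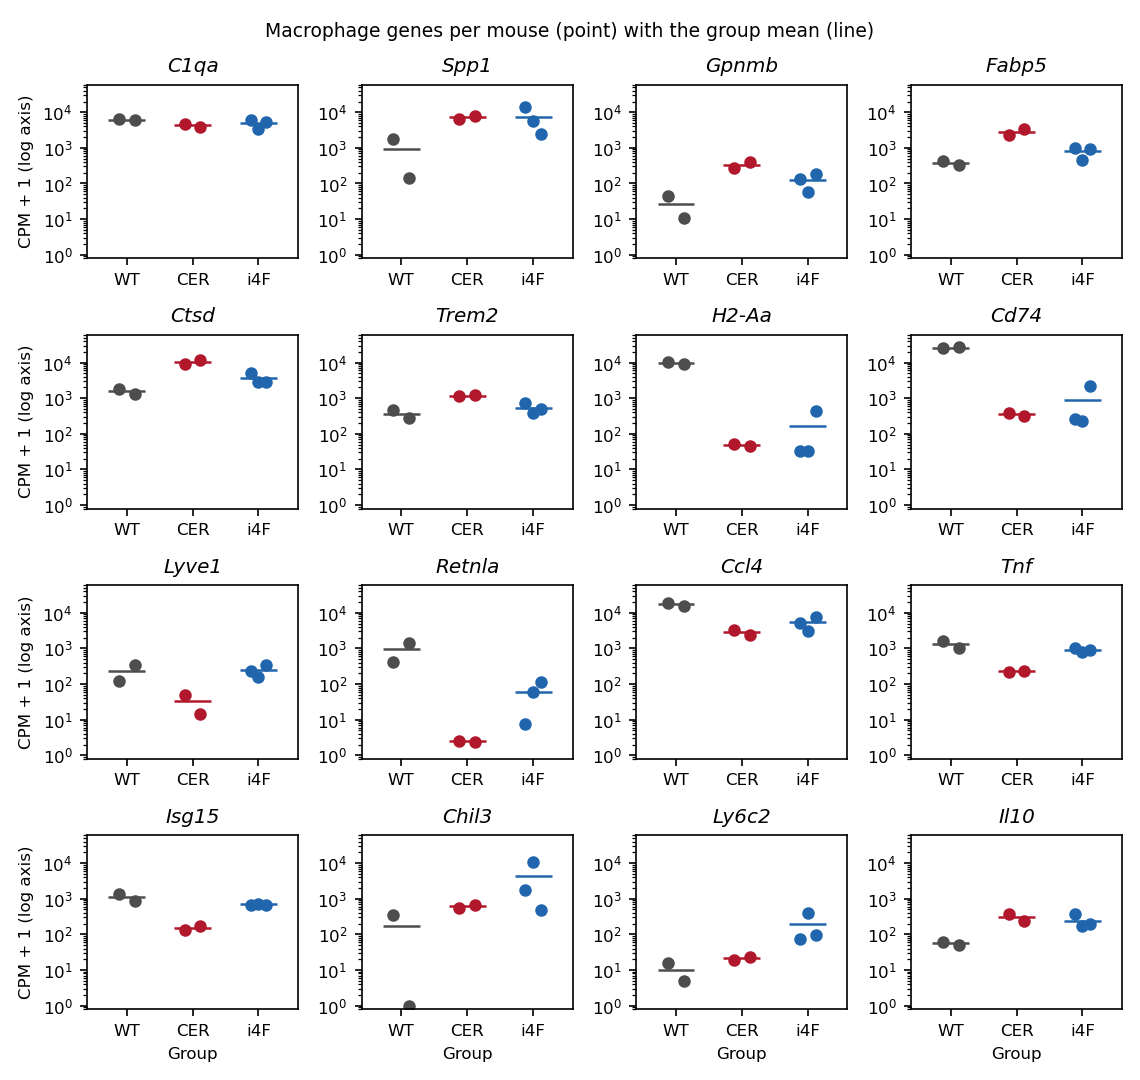
Levels of 16 genes in the macrophage class (CPM + 1, log axis), with a point per mouse and a line at the group mean, for WT, CER and i4F. Both caerulein points lie above both WT points for Spp1, Gpnmb, Fabp5, Ctsd and Trem2, and H2-Aa lies at 51.2 and 45.2 CPM in CER against 10516 and 9203 CPM in WT.

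MHC class II genes had the lowest median change of the programmes. The list holds genes of the paired chains that present peptides to helper T cells. Ciita is their master transcriptional regulator and Cd74 the chaperone of the chains. The list also holds Ctss, Cd86, Cd80 and Cd40, which are not class II genes. Of 11 genes, 8 were lower (5.3% over all genes), Cd86 among them, and none higher, with a median change of −3.61. H2-Aa was at 51.2 and 45.2 CPM in CER, 10516 and 9203 CPM in WT and 32.5, 32.4 and 442 CPM in i4F (log2 change to WT −7.56 ± 1.28 (SE), edgeR adjusted p = 0.0104). Cd74 was at 391 and 318 CPM in CER and 25989 and 26572 CPM in WT (log2 change −6.10 ± 1.05 (SE), edgeR adjusted p = 0.0104). Ciita was at 0.183 and 0.195 CPM in CER and 67.6 and 82.5 CPM in WT (log2 change −8.41 ± 0.79 (SE), edgeR adjusted p = 0.00201). For H2-Aa, i4F 1 and 2 lay under the caerulein mice and i4F 3 above them, and all were under both WT mice.

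How cells were assigned to clusters bears on this result. Dendritic cells carry much MHC class II, and the 14 dendritic markers summed to 551 and 505 CPM in the WT class, 6.13 and 4.29 CPM in the CER class and 13.7, 15.3 and 169 CPM in i4F. Mgl2, which macrophages also make, was 434 and 407 CPM of the WT sums, and Flt3, Xcr1, Itgae and Cacnb3 had no UMI there. The part of dendritic transcripts in the result was not tested. In caerulein pancreas, the cluster that the authors named B_lymphocytes held H2-Aa at 7645 and 7147 CPM, and 231 of its 994 cells in CER 1 and 82 of 398 in CER 2 had at least 3 C1q UMIs (23.2% and 20.6%), against 8.50% and 4.94% of acinar cells. When the class was taken as cells with at least 3 C1q UMIs in any immune cluster, a choice made after seeing the data, 3 of the 8 calls were left and H2-Aa was at 275 and 210.2 CPM in CER and 10642 and 9391 CPM in WT, with i4F at 248, 134 and 4585 CPM (log2 change of CER to WT −5.30, edgeR adjusted p = 0.0667). Of the 8 calls, 0 were left without CER 1, 1 (Ciita) without CER 2 and 4 without WT 2.

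The promoters of the paired chain genes are shown because class II promoters share a CCAAT-containing box. The RefSeq promoters (GRCm38.p6, 250 bases before to 50 after the start) were searched for CTGATTGG on both strands. It was found in 1346 of 32851 promoters and 1271 of 27025 genes (4.70%). It was also found in 2 of the 6 genes of the class II list with an entry, with the match in capitals. That of H2-Aa is at chr17:34287856-34287885 on the minus strand, 51 bases before the start, and that of H2-Eb1 at chr17:34305794-34305823 on the plus strand, 62 bases before it.
H2-Aa: aagagaattttCTGATTGGttctggcgagt
H2-Eb1: ctcctttgatgCTGATTGGctcccagcact

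Part of the interferon-induced genes were lower in caerulein than in WT macrophages. Of 15 genes, 6 were lower than in WT (5.3% over all genes) and none higher, with a median change of −1.53. Isg15 was at 135 and 172 CPM in CER, 1323 and 845 CPM in WT and 667, 727 and 685 CPM in i4F (log2 change to WT −2.72 ± 0.29 (SE), edgeR adjusted p = 0.00342). Ifit2, an antiviral RNA-binding protein, was at 3.98 and 3.9 CPM in CER and 117 and 68.6 CPM in WT (log2 change −4.34 ± 0.38 (SE), edgeR adjusted p = 0.00181). Rsad2 was at 53.3 and 70 CPM in CER and 252 and 241 CPM in WT (log2 change −1.90 ± 0.24 (SE), edgeR adjusted p = 0.00563). In each case both caerulein mice were below both WT mice, and Ifit1, Ifit3 and Ly6a completed the 6.

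Of these 6 calls, 2 were left without CER 1, 2 (Ifit1 and Ifit2) without CER 2 and 5 without WT 2. In cluster 2 alone, where these genes were higher than in cluster 1, 3 calls were left, and the log2 change of Isg15 was −1.67 (edgeR adjusted p = 0.0434) against −3.64 in cluster 1 alone.

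The promoters of this group are shown because they share a sequence element. The interferon-stimulated response element was searched as GAAA, any 2 bases and GAAA again, on both strands of the RefSeq promoters and found in 1131 of 32851 promoters and 1079 of 27025 genes (3.99%), and in 8 of the 11 listed genes with an entry (Isg15, Ifit1, Ifit3, Ifitm3, Rsad2, Oas1a, Bst2 and Gbp2). For 4 that were lower in CER than in WT, 30 bases of GRCm38.p6 around 1 match (capitals) are given, at chr4:156200871-156200900 on the minus strand for Isg15 (72 bases before the start), chr19:34640794-34640823 on the plus strand for Ifit1 (85 bases), chr19:34583363-34583392 on the plus strand for Ifit3 (156 bases) and chr12:26456553-26456582 on the minus strand for Rsad2 (120 bases). The printed Isg15 window lies among 3 overlapping matches, of which the middle is in capitals, and Ifit1 and Ifit3 each hold 1 further match that is not shown in full. A match is a description of these letters and not a measured binding site.
Isg15: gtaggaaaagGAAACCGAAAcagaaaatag
Ifit1: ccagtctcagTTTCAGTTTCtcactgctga
Ifit3: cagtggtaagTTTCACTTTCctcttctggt
Rsad2: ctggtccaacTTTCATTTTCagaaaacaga

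**Figure D4:**
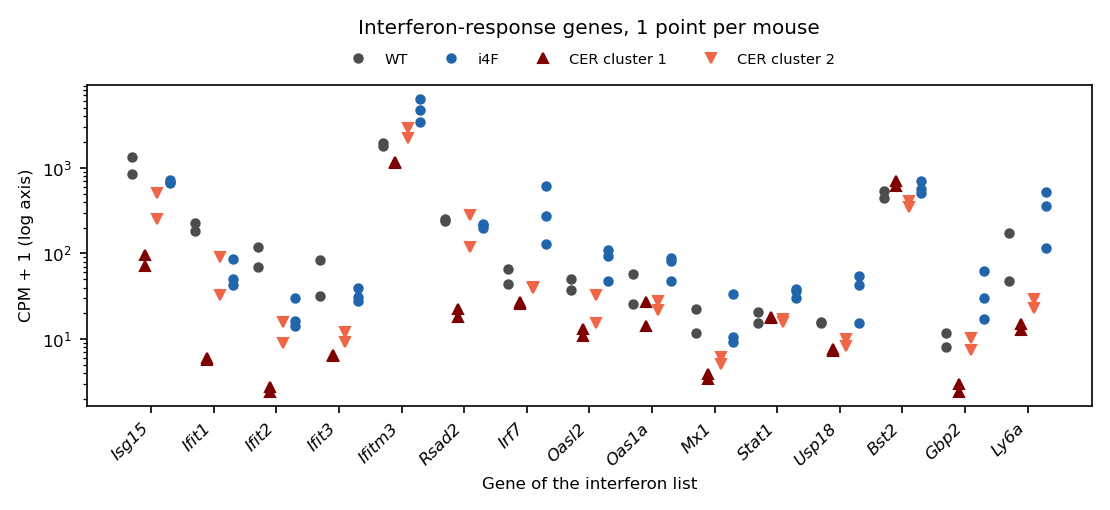
Levels of the 15 interferon-induced genes (CPM + 1, log axis), with a point per mouse for WT and i4F macrophages and for caerulein clusters 1 and 2 apart. Cluster 1 lies below every WT mouse for Isg15, Ifit1, Ifit2, Ifit3, Rsad2 and Ly6a, while Rsad2 in cluster 2, at 117 and 281 CPM, lies on both sides of the WT mice.

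Cytokine and chemokine genes did not move as a block. The inflammatory cytokine list also holds genes that are not cytokines, such as Nos2 and Nlrp3. Of its 15 genes, 1 was higher and 2 lower in CER than in WT (4.15% and 5.3% over all genes, median change −0.48). Of 17 chemokine genes, 1 was higher and 4 lower (median −0.80). Tnf was at 222 and 236 CPM in CER and 1647 and 1020.0 CPM in WT (log2 change −2.43 ± 0.30 (SE), edgeR adjusted p = 0.00563), and Il6 fell as well. Il10 went the other way, at 378 and 235 CPM in CER and 60.5 and 50.7 CPM in WT (log2 change 2.61 ± 0.47 (SE), edgeR adjusted p = 0.0122). Ccl4, which attracts lymphocytes and monocytes, was at 3274 and 2378 CPM in CER and 19360.1 and 15447 CPM in WT (log2 change −2.51 ± 0.40 (SE), edgeR adjusted p = 0.00949). Heat shock and dissociation genes, summed above, were lower in both caerulein mice as well, and their part in these changes was not tested. Ccl3, Ccl5 and Cxcl10 were lower too, and the platelet factor gene Pf4 was the 1 that was higher.

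Il1b was at 3251 and 1909.7 CPM in CER and 5854 and 1977 CPM in WT, with no change passing the test (log2 change −0.48 ± 0.51 (SE), edgeR adjusted p = 0.598) and with a direction that turned without WT 1. The calls for Tnf and for the 4 lower chemokine genes were lost without CER 1 and without CER 2, and Pf4 was lost in most alternatives. Without WT 2, Ccl3 and Cxcl10 stayed called.

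Some receptors of resident macrophages were lower in the caerulein class, Lyve1 among them although it led cluster 2. Of 12 resident genes, 4 were lower and 1 (Pf4) higher (5.3% and 4.15% over all genes, median change −0.61). Lyve1 was at 50 and 13.8 CPM in CER and 121 and 339 CPM in WT (log2 change −2.73 ± 0.65 (SE), edgeR adjusted p = 0.0300). Timd4, a receptor for exposed phosphatidylserine on dying cells, was at 0.503 and 0.195 CPM in CER and 14.2 and 68.6 CPM in WT (log2 change −6.63 ± 0.90 (SE), edgeR adjusted p = 0.00712). Cd163 and the lectin gene Cd209f were the other members that fell. In cluster 2 alone, 1 of the 4 (Timd4) stayed called, with Lyve1 at a log2 change of −1.36 (edgeR adjusted p = 0.18), and none of the 4 was left without CER 1, without CER 2 or without WT 2, 1 without i4F 1 and 2 without i4F 2.

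Of 12 genes of alternative activation, the state set by interleukins 4 and 13, 5 were lower (5.3% over all genes) and none higher (median change −2.02, or −1.51 with genes absent in a group at their bound). Retnla, a secreted resistin-like protein, was at 1.6 and 1.36 CPM in CER, 427 and 1460.5 CPM in WT and 6.37, 59.6 and 111 CPM in i4F (log2 change to WT −9.14 ± 1.28 (SE), edgeR adjusted p = 0.00737). The lectin genes Mgl2 and Clec10a fell by 8.97 and 2.44 on the log2 scale (edgeR adjusted p = 0.0275 and 0.0187), and Mgl2 is also made by dendritic cells. Socs2 and Egr2 were the others. None of the 5 stayed called without CER 1 or without CER 2, and 1 (Retnla) without WT 2.

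**Figure D5:**
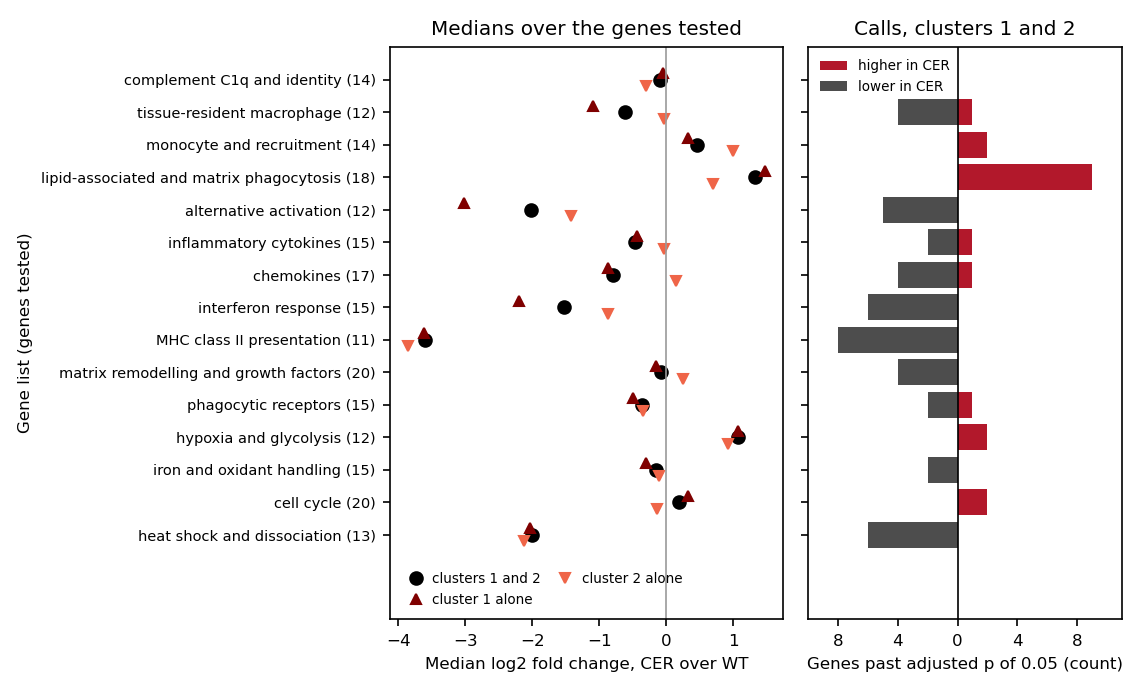
Left, the median log2 fold change, CER over WT, of the tested genes of each programme (number in brackets) for caerulein clusters 1 and 2 together, cluster 1 alone and cluster 2 alone. Right, the number of genes called higher (right of 0) and lower (left of 0) in clusters 1 and 2 together, the lipid-associated list holding 9 higher and the MHC class II list 8 lower.

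The remaining programmes held few calls, to be read against 4.15% higher and 5.3% lower over all genes. Of 20 matrix and growth factor genes, 4 were lower (median change −0.08), among them the collagenase gene Mmp13 at 3.43 and 1.36 CPM in CER and 139 and 69.6 CPM in WT (log2 change −5.01 ± 0.51 (SE), edgeR adjusted p = 0.00224). Of 15 phagocytic receptor genes, Axl and Timd4 were lower and the scavenger receptor gene Msr1 was higher (median −0.36). Axl, a receptor for apoptotic cells, was at 4.94 and 5.07 CPM in CER and 153 and 89.5 CPM in WT (log2 change −4.41 ± 0.62 (SE), edgeR adjusted p = 0.00737). Of 12 hypoxia and glycolysis genes, Pgk1 and Ldha rose (median 1.07), and of 14 monocyte genes S100a4 and S100a6 rose (median 0.45). Of 20 cell cycle genes, the replication helicase genes Mcm5 and Mcm6 rose (median 0.18), and of 15 iron and oxidant genes the iron exporter Slc40a1 and the oxidase subunit Cybb fell (median −0.15).

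The genes with the largest changes by the fixed rule, beyond those above, were Dmkn, Trem3, Csf3, Gcnt2, Itgb7 and Reg3g among the higher ones. Csf3, the granulocyte growth factor, was at 112 and 29.6 CPM in CER and 0 and 0.994 CPM in WT, with CER 1 the high library. Dmkn and Trem3 had no UMI in the WT class and were at least 11- and 7.58-fold higher. Dmkn outside the class was at 87.2 and 40.4 CPM in CER and 26 and 44.3 CPM in WT, against 27.2 and 19.3 CPM in the CER class. The lower ones were Retnla, Mgl2, H2-Eb1, H2-Aa, H2-Ab1, Serpini2, Clec3b and Cd209g. Some of these were more abundant outside the macrophage class and moved the same way there. Reg3g was at 21.9 and 22.8 CPM in the CER class and 3.56 and 0.994 CPM in the WT class, but outside it at 392 and 733 CPM in CER and 125 and 5.96 CPM in WT. Serpini2 outside the class was at 2.56 and 2.42 CPM in CER and 224 and 218 CPM in WT, against 0.549 and 0.585 and 49.8 and 100.4 CPM within it. Clec3b outside the class was at 80.5 and 71.7 CPM in CER and 945 and 1253 CPM in WT, against 0.96 and 0.39 and 3.56 and 185 CPM within it. The part of RNA from other cells in these changes was not tested.

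Caerulein macrophages were next set against those of i4F pancreas, in which macrophages were also many in 2 of 3 mice, in the same fit and thus with the same caerulein mice. Of 12272 genes, 857 differed (6.98%), 258 higher (2.1%) and 599 lower (4.88%) in CER. The interferon-induced genes were the list with the most calls. Of the 15, 14 were lower in CER, all but Bst2, with a median change of −2.21. The transcription factor gene Irf7 was at 31.2 and 27.5 CPM in CER and 269, 611 and 129.5 CPM in i4F (log2 change −3.59 ± 0.61 (SE), edgeR adjusted p = 0.0121). Isg15, whose levels are given above, had a log2 change of −2.21 ± 0.27 (SE), edgeR adjusted p = 0.00489. Every i4F mouse was above both caerulein mice for both genes.

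Of 14 monocyte genes, 5 were lower in CER and none higher (4.88% lower over all genes). The median change of the 14 was −2.93, and it turned to 0.76 with the library series as a term in the fit. Ly6c2, a surface antigen of inflammatory monocytes, was at 18.3 and 21.8 CPM in CER and 71.6, 405 and 96.6 CPM in i4F (log2 change −3.34 ± 0.73 (SE), edgeR adjusted p = 0.0282). Plac8, Hp and Ifitm6 also fell. Neutrophil markers summed to 388, 2976 and 173 CPM in the i4F class and 187 and 172 CPM in CER, with i4F 2 the high library, and their part in these changes was not tested. The 10 leading genes of the caerulein acinar cluster summed to 1916, 4153 and 17921 CPM in the i4F class, with i4F 3 the high library. In CER they summed to 1119 and 890 CPM, and their part was not tested either. Of 15 genes of the cytokine list, 5 were lower in CER (Il1a, Il1rn, Tnf, Il6 and Nos2, median −1.30). Nos2 is an enzyme gene, with 1 UMI in the CER class and 138 in the i4F class. Il1a was at 127 and 68 CPM in CER and 1009.5, 1143 and 786 CPM in i4F (log2 change −3.34 ± 0.59 (SE), edgeR adjusted p = 0.014).

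Fewer genes were higher than lower in caerulein against i4F macrophages, and lipid-associated genes were among them. Of 18, 3 were higher (Syngr1, Fabp5 and Ctsd), 1 lower (Cd9), with a median change of 0.44, against 2.1% higher and 4.88% lower over all genes. Syngr1 was at 165, 37.7 and 88.4 CPM in i4F, against the caerulein levels given above (log2 change 2.12 ± 0.48 (SE), edgeR adjusted p = 0.0323). Fabp5 was at 997, 445 and 939.7 CPM in i4F (log2 change 1.81 ± 0.33 (SE), edgeR adjusted p = 0.0162). The macrophage gene Ms4a7 was at 859 and 749 CPM in CER and 333, 83.5 and 294 CPM in i4F (log2 change 1.76 ± 0.45 (SE), edgeR adjusted p = 0.0477). The ferritin light chain gene Ftl1 and the mitochondrial kinase gene Nme4 rose by 1.15 and 2.15 (edgeR adjusted p = 0.0175 and 0.00431), and the glucose transporter gene Slc2a1 fell by 2.06 (edgeR adjusted p = 0.0079).

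Without CER 1 or without CER 2, none of the 14 interferon calls, of the 5 monocyte calls or of the 33 named genes called was left, and the same was so with the library series as a term in the fit, where 2 genes of all tested were called. Without i4F 1, 11 interferon calls were left of 293 over all genes, and without i4F 2, 10 of 179. In cluster 2 alone, 1 interferon gene (Usp18) stayed called and Syngr1 had a log2 change of −0.06. Caerulein and the library series cannot be told apart in this comparison except through the WT mice, 1 of each series. Caerulein and the absence of doxycycline cannot be told apart here either.

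Whether a change was larger or smaller in macrophages than in the rest of the same pancreas was tested as an interaction, the CER to WT change in the macrophage class minus that outside it. Of 18081 genes, 636 passed (3.52%), of which 80 had a higher change in macrophages (0.442%) and 556 a lower one (3.08%), and the median of all genes was 0.09. The 636 calls became 358 without CER 1, 405 without CER 2, 148 without WT 2 and 1896 without i4F 3. Among those with a lower change were 11 of the 14 macrophage identity genes. C1qa outside the class was at 339.6 and 206 CPM in CER and 13.9 and 24.6 CPM in WT, while within the class it did not pass, and the difference between these changes was −4.44 ± 0.57 (SE), edgeR adjusted p = 0.000513. Ccl4 outside the class was at 280.3 and 160.2 CPM in CER and 69.8 and 70.6 CPM in WT, and its difference was −4.32 ± 0.48 (SE), edgeR adjusted p = 0.000148. C1qa UMIs were counted in acinar cells of the caerulein pancreas at the shares given above. The cells outside the class also held the cluster named B_lymphocytes, where C1qa, C1qb and C1qc together were at 4017 and 3353 CPM in CER. In WT the cluster of that name held them at 0 and 9.53 CPM. The part of free RNA and of such cells in these differences was not tested.

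MHC class II genes and a small set of lipid-associated genes were also among the interaction calls. H2-Aa outside the class was at 496 and 349 CPM in CER and 447 and 429 CPM in WT. Those cells include cluster 2 of WT, with dendritic markers, and in CER the cluster named B_lymphocytes. The class II list summed to 3422 and 2420 CPM outside the class in CER and 2593 and 2792 CPM in WT. Outside all macrophage-named clusters it was at 3436 and 2423 CPM in CER and 697 and 776 CPM in WT. The interaction for H2-Aa was −7.70 ± 0.37 (SE), edgeR adjusted p = 1.06e-07. In this direction 9 of the 11 genes of the list were called (3.08% over all genes), Ctss and Cd86 among them. Spp1 outside the class was at 2066 and 2753 CPM in CER and 8326 and 4327 CPM in WT, lower in both caerulein mice, whereas within the class it was higher in both without passing the test, and the interaction was 5.06 ± 0.75 (SE), edgeR adjusted p = 0.00159. Ductal cells also make Spp1. Syngr1, Fabp5 and Ctsl were the other lipid-associated genes with a higher change in macrophages, 4 of 18 with Spp1 (0.442% over all genes), at 4.61, 2.01 and 2.09 on the log2 scale (edgeR adjusted p = 0.00486, 0.0215 and 0.0238), while Trem2, Tyrobp and Lgals3 had a lower one (3.08%).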

How the data were processed

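The authors aligned reads with Cell Ranger to mm10, corrected free RNA with SoupX, removed cells with few genes or much mitochondrial RNA, and clustered and named cells with Seurat. The deposited matrices hold UMI counts per gene and cell, and the deposited metadata give each cell's cluster and library, with the percentage of its UMIs on mitochondrial and ribosomal genes as the authors computed it. Some acinar and endocrine marker genes are absent from the matrices, and CPM values are of the genes present.

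Counts of the cells of a class were summed per mouse (at least 20 cells). Changes were tested with the quasi-likelihood test of edgeR 4.0.16 (R 4.3.3; TMM, filterByExpr, Benjamini-Hochberg, threshold 0.05) over all genes and all 7 mice. Each SE is the absolute log2 change divided by the square root of the F statistic of its test. It is therefore not a separate estimate of spread. The interaction fit had 2 sums per mouse and mouse as a block. Shares were compared by exact two-sided permutation tests (scipy 1.17.1). Leading genes were the 12 with the highest fold after adding 20 CPM, in genes found in at least 10% of a cluster's cells. Doublets were predicted with Scrublet (scanpy 1.11.5), which called 2 cells in WT 1 and 0 in i4F 3, too few to rely on there. The named genes were the fixed lists and, per test and direction, up to 8 called genes of the largest change with average log2 CPM of at least 4 and no overlap of the groups. Ifnb1 was added later, and some genes that the rule named are not reported here. On simulated counts with a planted log2 change of 2, the class test recovered 60.7% of changed genes and the interaction 27.7%. Members and lists were chosen with earlier results of these data known, and the alternatives on single caerulein clusters and on C1q cells of any immune cluster after seeing the data.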

Additional observations from a re-analysis of the deposited data

Results flagged for a closer look

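The change from WT to CER differed between macrophages and the other cells of the same mice for 636 of 18081 genes by the edgeR interaction test. In the cluster that the authors named B_lymphocytes, which is outside the macrophage class, at least 3 C1q UMIs were found in 231 of 994 cells of CER 1 and in 82 of 398 cells of CER 2, against 8.50% and 4.94% of the acinar cells of the same mice. In the cluster of that name they were found in 0 of 47 and 0 of 111 cells in WT, where 0 of 853 and 0 of 917 acinar cells held as many, and in 13 of 453, 0 of 343 and 6 of 1290 cells in i4F.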

How the results depend on the processing

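Of the values recomputed under an alternative, 1826 kept their direction and their side of the threshold, 505 kept their direction and lost the call, 15 gained one and 9 changed sign. Calls for CER against WT, 1159, became 683 with all named clusters, 333 in caerulein cluster 2 alone and 2021 with no filter on genes. Leaving out 1 mouse gave 16 to 1476, and without a CER or WT mouse the lone library of that group is assumed to vary like the other groups. Calls for CER against i4F, 857, became 202 with all named clusters, 1348 in cluster 1 alone, 73 in cluster 2 alone, 469 with C1q cells of any immune cluster, 2 with the library series as a term and 1766 with no filter, and 2 to 1208 without 1 mouse. The interaction calls, 636, became 1840 with CER and WT alone, 409 without predicted doublets and 1292 with no filter, and 148 to 1896 without 1 mouse. The causes were not tested.

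Replicate numbers are taken as only a shared number here. The correlation over genes of the deviations of same-numbered mice was −0.194 for CER and WT and −0.046 for CER and i4F. With 2 mice taken per group, the 2 pairs mirror each other, so these values cannot show whether the mice were paired. With the replicate block, calls were 268 against WT and 1618 against i4F, and the differences in share were 40.0 and 7.68 percentage points.

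Against WT, the log2 change turned to 0.37 for C1qa and 0.55 for C1qb with all named clusters, to −0.67 for Apoe and 0.0079 for Il1b in cluster 2 alone, and for Il1b to 0.55 with the series term and 0.54 without WT 1 (−1.02 without WT 2). Against i4F it turned to −0.057 for Syngr1 and −0.86 for Gpnmb in cluster 2 alone, and with the series term to 11.03 for Chil3. List medians against WT turned to 0.55 for cytokines with the series term, to 0.14 for chemokines and 0.24 for matrix genes in cluster 2 alone, and with all named clusters to 0.47 for C1q and identity, 0.019 for resident, 0.44 for iron and −0.40 for cell cycle genes. The matrix median was also 0.15 with the series term, and the cell cycle median −0.14 in cluster 2 alone, −0.11 in C1q cells and −0.20 by DESeq2. Against i4F the lipid-associated median turned to −0.18 in cluster 2 alone.

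Depth limits WT 1 most, with 45 cells.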
